A study of Mus musculus with 2 samples.

Results

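This account concerns 3 genes in mouse hippocampal DNA. Rap1gap and Sipa1 encode GTPase-activating proteins for the small GTPase Rap, and Rps6ka1 encodes the kinase RSK1. Every distinct region of a deposited list of differentially methylated regions that carries one of these symbols was taken, which gave 1 region per gene, 3 of the 276 regions in the list. The list was made by comparing methylation between the same 2 libraries that are described here, and the genes were chosen by their differences in level in that list. The differences below are therefore a description, with no test.

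The libraries were made by reduced representation bisulfite sequencing (RRBS), in which DNA is cut with the enzyme MspI, short fragments are kept and unmethylated cytosines are converted, so that CpG-rich stretches are read for methylation. The choline library (F1m-GCS) came from offspring of dams fed 5 g/kg choline chloride from embryonic day 9 to birth, and the control library (F1m-CON) from offspring of dams fed 1.1 g/kg over the same time. All offspring were on a basal diet after birth and were tested for behaviour at 2 months. The labels used here give no strain, genotype, number of animals per library or age at which tissue was taken. There was 1 library per group, so the spread between animals is unknown, and intervals below cover counting error only. A list of methylated regions holds no expression values, so the tissue label could not be checked against marker genes.

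Rap proteins are molecular switches that are active when bound to GTP and inactive when bound to GDP. Exchange factors load them with GTP, and GTPase-activating proteins such as Rap1GAP and SIPA1 speed the hydrolysis that turns them off. In neurons Rap signalling is tied to cell adhesion, to the ERK cascade and to the shape and plasticity of synapses. RSK1 lies at the end of that cascade: ERK activates it, and it phosphorylates targets that include ribosomal protein S6 and the transcription factor CREB.

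The region of Sipa1 is the one whose sequence could be read, and it shows how dense in CpG sites this part of the coding exon is. The coordinates of the deposited exon were those of the GRCm38 annotation, which was not so for Rap1gap or Rps6ka1. The sequence of chr19:5654777-5655014 is from GRCm38 and the plus strand, while the gene is on the minus strand, and every CpG is in capitals.

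Sipa1: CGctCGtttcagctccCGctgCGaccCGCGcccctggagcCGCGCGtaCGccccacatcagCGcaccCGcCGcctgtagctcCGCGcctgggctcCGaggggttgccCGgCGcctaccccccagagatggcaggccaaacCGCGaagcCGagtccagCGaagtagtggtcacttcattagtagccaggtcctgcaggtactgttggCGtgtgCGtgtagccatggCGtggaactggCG

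These 238 bases begin and end on a CpG and hold 26 CpG dinucleotides, or 52 CpG cytosines when both strands are counted. The ratio of observed to expected CpG was 0.947 and the G and C content 68.1%, and there was 1 MspI site (CCGG) inside the region. The deposited number of CpG sites was 50, more than 1 strand can hold. The listed sites are therefore taken here as cytosines of both strands, and 50 listed sites stand for at least 25 dinucleotides.

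The first comparison asked how the methylation level of each gene's region stood in the choline library against the control library. The region of Sipa1 was higher in the choline library, and those of Rap1gap and Rps6ka1 were lower. Both genes for Rap GTPase-activating proteins thus lay on opposite sides, and the kinase gene lay on the side of Rap1gap. In the whole list 26.4% of regions were lower in the choline library (73 of 276) and 73.6% were higher (203 of 276). These directions come from the comparison that made the list, and nothing is read from their agreement with that background.

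Rap1gap, whose product acts on Rap1, had its region in an intron (chromosome 4, 137279712 to 137279878 as deposited, 167 bp, 16 listed CpG sites). In the control library 278 of 508 CpG calls were methylated, or 54.7% (exact Clopper-Pearson 95% interval 50.3 to 59.1). In the choline library 65 of 213 calls were methylated, or 30.5% (24.4 to 37.2). The control library was thus high for this list, with 3 of the other regions above it, and the choline library stood at a level that 68 regions exceeded. The difference was -24.2 percentage points, a level 1.79 times as high in the control library. Of the 73 regions that were lower in the choline library, 1 had a larger loss.

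Rps6ka1 also had its region in an intron (chromosome 4, 133443000 to 133443066 as deposited, 67 bp). This region had 5 listed CpG sites, the fewest of any region in the list, a number shared by 43 regions. The control library had 55 of 152 calls methylated, or 36.2% (exact 95% interval 28.6 to 44.4), and the choline library 25 of 155 calls, or 16.1% (10.7 to 22.9). The difference was -20.1 points, and the level was 2.24 times as high in the control library. By the size of its loss this region was number 7 of the 73.

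Sipa1, a Rap GTPase-activating protein that carries a PDZ domain, had its region in coding sequence (chromosome 19, 5654777 to 5655014, 238 bp). The control library had 341 of 1909 calls methylated, or 17.9% (exact 95% interval 16.2 to 19.7), and the choline library 598 of 1921 calls, or 31.1% (29.1 to 33.3). The difference was 13.3 points, and the level was 1.74 times as high in the choline library. This was close to the middle of the list: 81 of the 203 regions that were higher had a larger gain, and the median size of a gain was 12.3 points.

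A difference of at least 20 points was present at Rap1gap and Rps6ka1 and not at Sipa1, and in the list it was present in 9.06% of regions (25 of 276). Rps6ka1 was just past that size, and with 1 methylated and 1 unmethylated read added to each library it was under it, at -18.9 points. In the choline library the levels of Rap1gap and Sipa1 were similar, 30.5% and 31.1%, and the gap between these genes was in the control library, 54.7% against 17.9%. The position of Rap1gap and Rps6ka1 depended on how size was measured. By points Rap1gap was number 8 and Rps6ka1 number 24 of 276. By the absolute log2 ratio of both levels, in which regions of low level rank high, they were number 180 and number 118.

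**Figure D1:**
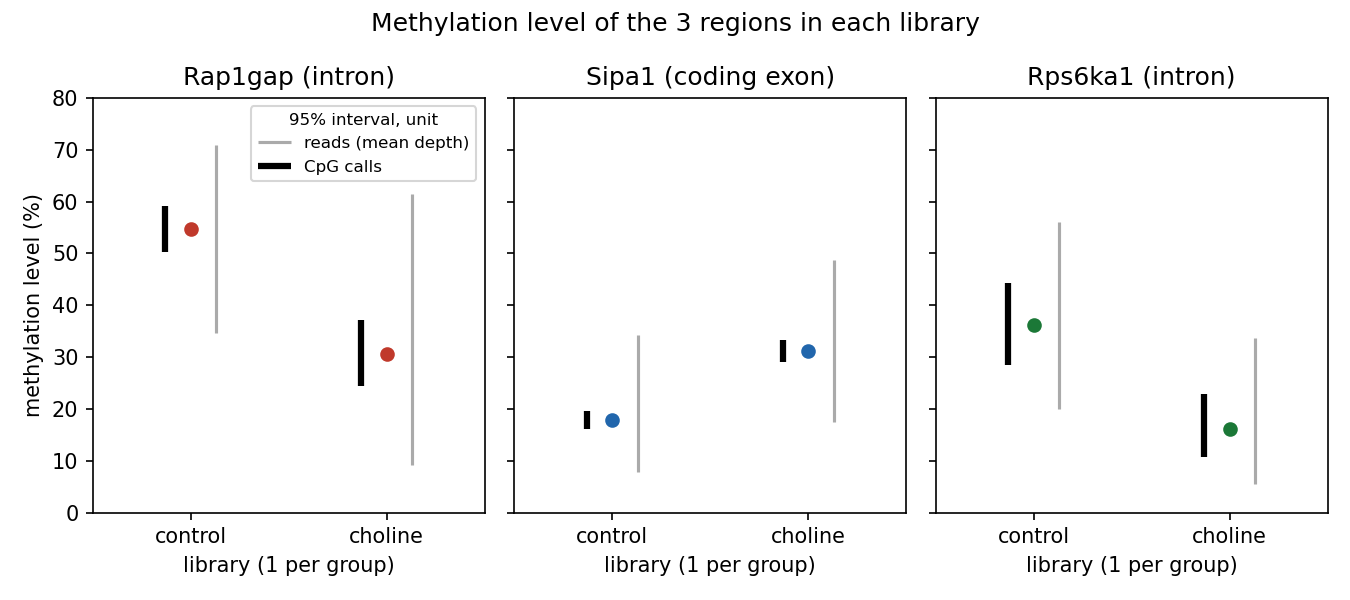
Methylation level (%) of the Rap1gap, Sipa1 and Rps6ka1 regions in the control and the choline library (coloured points, 1 library each). Black bars are exact 95% intervals with CpG calls as the unit, and grey bars use the mean depth as the number of reads. The black bars of both libraries are apart in each gene, and the grey bars overlap in each gene.

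**Figure D2:**
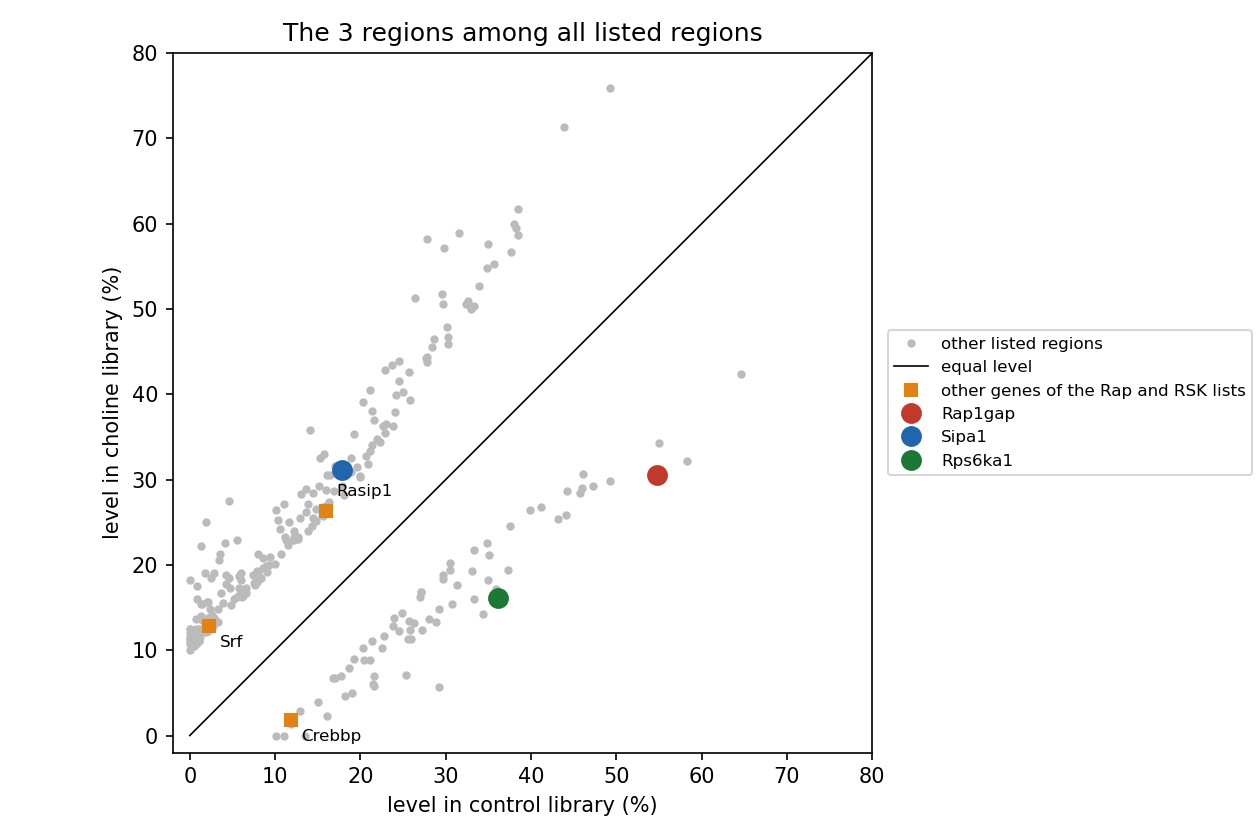
Level in the choline library (%) against level in the control library (%) for the 276 listed regions, with a line of equal level. Sipa1 lies above the line at 17.9% and 31.1%, and Rap1gap (54.7% and 30.5%) and Rps6ka1 (36.2% and 16.1%) lie below it, while squares mark Crebbp, Srf and Rasip1. The empty band along the line shows that regions with small differences are not in the list.

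The second comparison asked how firmly each level was measured. Sipa1 and Rps6ka1 were read at nearly equal depth in both libraries, and Rap1gap was not. The mean depth per listed site at Sipa1 was 38.2 for control and 38.4 for choline, and at Rps6ka1 it was 30.4 and 31. At Rap1gap it was 31.8 and 13.3, so that the choline library had 0.419 times the control depth. Of the 90 regions with a choline depth under 0.5 of the control depth, 11.1% were lower in the choline library (10 of 90, exact 95% interval 5.46 to 19.5), and Rap1gap was one of them. Of the 137 regions with a depth ratio between 2/3 and 3/2, 33.6% were lower (46 of 137, 25.7 to 42.1), Rps6ka1 among them. The part of depth in the difference at Rap1gap was not tested.

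Calls on the same read are not independent, so the intervals on calls are too narrow. With the mean depth as the number of reads, the exact 95% interval at Rap1gap was 34.7 to 70.9% in the control library. In the choline library it was 9.09 to 61.4%. At Rps6ka1 they were 19.9 to 56.1% and 5.45 to 33.7%, and at Sipa1 7.74 to 34.3% and 17.5 to 48.7%. The intervals of both libraries overlapped at each of the 3 genes in this count, and they overlapped as well when 2 times the mean depth was used, since each strand is read apart. Overlap of 2 intervals is not a test of the difference. A region cannot have fewer reads than the mean depth per site. Where its listed sites lie on both strands, as taken here, it has more, and the intervals on mean depth then count too few reads. The Sipa1 region of 238 bp is longer than the longest insert, 220 bp, so its reads come from more than 1 fragment. There 2 times the mean depth can count too few reads as well. The number of independent reads behind each level is not known here. The p-values in the authors' deposited table were 9.58e-22 for Sipa1, 3.08e-09 for Rap1gap and 8.37e-05 for Rps6ka1. The order of these p-values follows the number of calls, 3830, 721 and 307 over both libraries, and not the size of the difference, which was smallest at Sipa1.

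**Figure D3:**
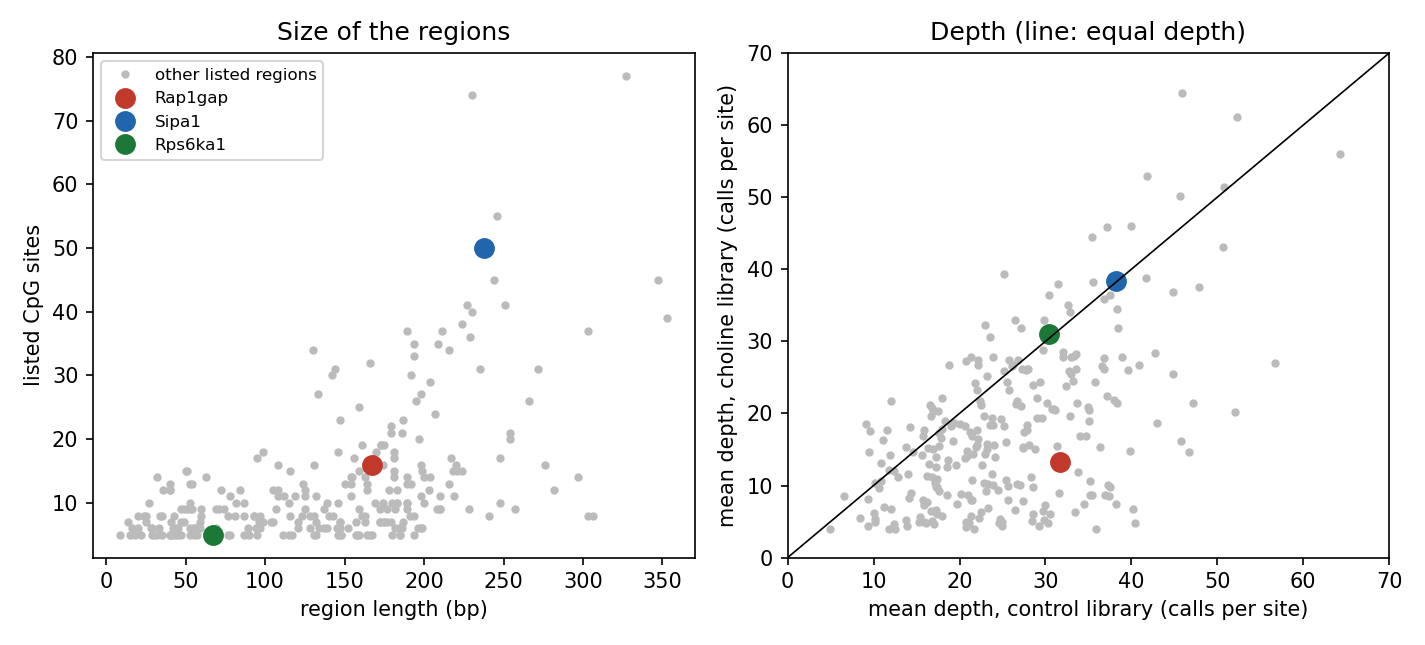
Left, number of listed CpG sites against region length (bp); right, mean depth in the choline against the control library (calls per site), with a line of equal depth. Grey points are the other listed regions. Sipa1 has 50 sites in 238 bp and Rps6ka1 has 5 in 67 bp, and Rap1gap lies below the line of equal depth, at 31.8 and 13.3.

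The third comparison set the regions side by side by sequence content and place in the gene. These traits were known for the listed regions when the genes were chosen, and they are a description too. Sipa1 had 21.0 listed CpG sites per 100 bp, Rap1gap 9.58 and Rps6ka1 7.46, and the median of the list was 8.92. In the list 3 regions had more CpG sites than Sipa1, and 31 were denser. Rap1gap and Rps6ka1 lay on both sides of the median density, and Rap1gap had 54 regions above it by number of sites. The Sipa1 region was thus long and dense, the Rps6ka1 region short, and the Rap1gap region close to the middle by density.

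The Rap1gap region lay within an intron of 2734 bp, at bases 1840 to 2006 from its 5' end. An intron of that length was present in 3 of 6 coding transcripts of Rap1gap in GENCODE M21 (GRCm38), as intron 18 of 24 or 16 of 22, so it lies in the later part of the gene. The Rps6ka1 region lay at bases 419 to 485 of an intron of 6608 bp. An intron of that length was present in 2 of 6 coding transcripts, as the first of 21, and the region then begins 633 or 646 bases after the start of transcription. No promoter line was listed for it. Promoter lines were 2000 bp long, and where they lie relative to a start was not checked. The region of Crebbp, with 5' UTR and upstream lines, had no promoter line either. The lack of such a line at Rps6ka1 therefore gives no distance from a start. The Sipa1 region lay at bases 143 to 380 of a coding exon of 610 bp, present in 7 of 8 coding transcripts. In 6 of these it spans codons 518 to 597 of 1038, and in the other codons 173 to 252 of 693. Matches by length name the intron and give no GRCm38 position for Rap1gap or Rps6ka1.

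**Figure D4:**
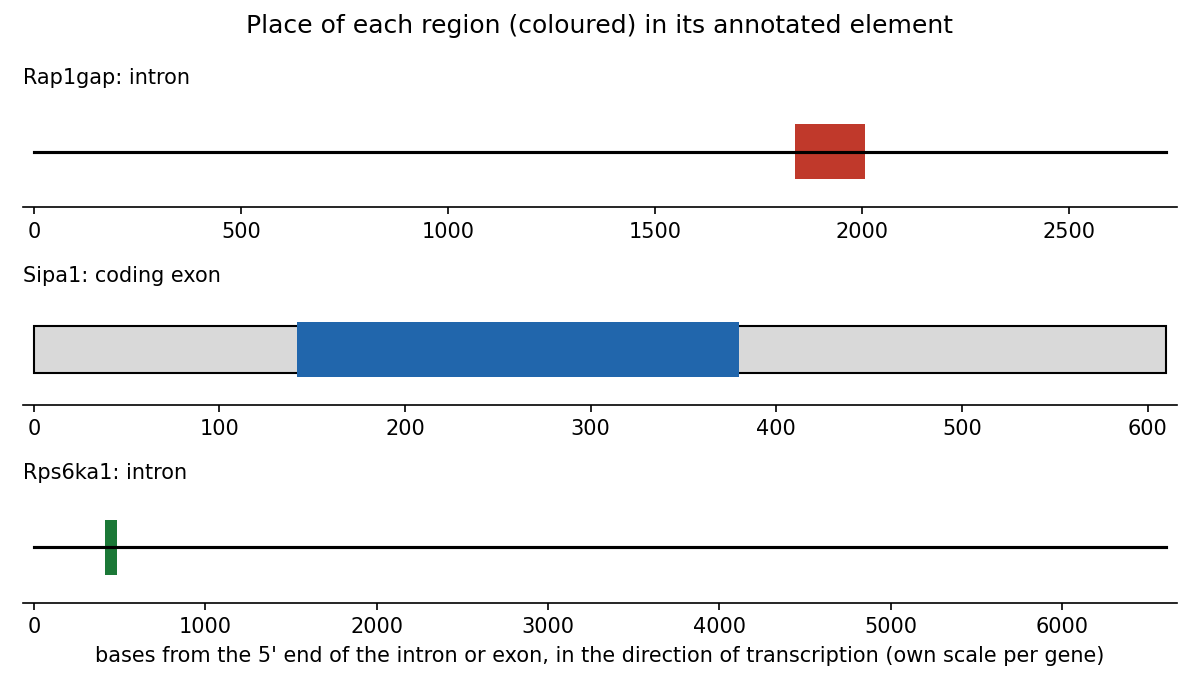
Place of each region (coloured) in its annotated intron (line) or coding exon (grey box), in bases from the 5' end of that element, with a scale of its own for each gene. The Rps6ka1 region lies close to the 5' end of an intron of 6608 bp, the Rap1gap region past the middle of an intron of 2734 bp, and the Sipa1 region takes bases 143 to 380 of 610.

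Regions annotated as intron alone, like those of Rap1gap and Rps6ka1, were lower in the choline library in 33.8% of cases (26 of 77, exact 95% interval 23.4 to 45.4). Regions annotated as coding sequence alone, like that of Sipa1, were higher in 80% of cases (28 of 35, 63.1 to 91.6). The shares of the whole list, 26.4% lower and 73.6% higher, lay within these intervals. Most intron regions were thus higher, unlike those of Rap1gap and Rps6ka1, and Sipa1 was on the side of most coding regions. Most of the whole list was on that side too. Rap1gap and Rps6ka1 lay 3.84 Mb apart on chromosome 4, where 27.3% of listed regions were lower (6 of 22). There were 0 listed regions between them. The region closest to Rap1gap, 189.9 kb away in Ece1, an endothelin-converting enzyme, was higher in the choline library, at 18.2% and 31.2%. The region closest to Rps6ka1, 629.8 kb away in Sytl1, was lower, at 29.6% and 18.8%. The neighbours thus lay on both sides.

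The regions with the most similar pair of levels were found by distance in percentage points over the 2 libraries, among those with both depths at 10 or more. For Rap1gap they were introns of Gmpr (55.0% in control and 34.3% in choline), D19Wsu162e (58.3% and 32.1%) and Mrc1 (49.3% and 29.9%). For Rps6ka1 they were regions of Stap2 (35.9% and 17.2%), Ror2 (34.9% and 18.3%) and Gal3st1 (34.4% and 14.3%). For Sipa1 they were regions of Ece1, of 4930599N23Rik and Parp12 (17.0% and 31.6%), and of Fbxo39 and Xaf1 (18.9% and 30.8%). The closest were 3.80 points from Rap1gap, 1.11 from Rps6ka1 and 0.355 from Sipa1. Of the 6 regions named for Rap1gap and Rps6ka1, 5 touched an intron, as did 63.0% of the regions they were drawn from (121 of 192).

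The fourth comparison looked at the rest of the pathway in 7 gene lists from Rap to the targets of RSK, of 85 genes in all. Besides the 3 genes above, 3 of 82 had a listed region, 2 higher and 1 lower in the choline library. Over all protein-coding genes in the RefSeq table of GRCm38.p6, 1.25% had a listed region (274 of 21900, matched by symbol or older name). The lists were chosen with the listed genes known and the coverage of other genes is not known, so no test of these counts was made. None of the 5 Rap GTPases, the 11 Rap exchange factors or the 17 genes from Ras to ERK had one. Rap1gap and Sipa1 were the 2 of 9 Rap GTPase-activating proteins with a region, and Rps6ka1 was the 1 of 8 RSK and related S6 kinases.

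Of 13 Rap effectors, Rasip1, which binds Rap1 and Ras in endothelial cells, had a region in coding sequence (chromosome 7, 52887988 to 52888216 as deposited, 36 listed sites). In the control library 16.0% of 988 calls were methylated. In the choline library it was 26.3% of 547 calls, and the levels differed by 10.3 points. Like Sipa1 it was a dense coding region with the choline library higher, at depths of 27.4 and 15.2. Of 22 RSK substrates and partners, Srf, the serum response factor that drives immediate early genes, had a coding region with 2.31% of 303 calls and 12.8% of 133 calls methylated, a difference of 10.5 points at depths of 23.3 and 10.2. Crebbp, the coactivator that binds CREB and RSK1, had a region in upstream sequence and 5' UTR with 11.8% of 110 calls and 1.79% of 56 calls methylated, at depths of 15.7 and 8. These 3 differences lay close to the smallest in the list, 10 points.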

How the data were processed

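The members and gene lists were chosen with earlier results of these data known. MspI digests of 500 ng of DNA were sequenced, with inserts of 40 to 220 bp, per the labels' protocols. Trimming was by cutadapt and alignment to converted genomes by SOAPaligner 2.21 with up to 5 mismatches, per the series' design text, which gives conversion above 99%. The submitters' processing notes name CASAVA 1.8 and the builds mm9 and mm10, while for the region caller and its thresholds nothing is stated there. The file headers name methylation and mean depth for each library, the number of CpG sites and a p-value, without definitions. The deposited methylation fraction is taken here as the share of methylated calls in a region. The deposited depth (a signal) is taken as the mean number of calls per listed CpG site, and the authors' p-values as comparing the libraries.

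The table's 725 lines were reduced to 276 regions, and symbols that had lost letters were restored in 70 promoter lines from other lines of the same region. Fraction, depth and number of sites gave whole calls (tolerance 1e-06) in 259 regions, among them all those of Rap1gap, Sipa1 and Rps6ka1 and of the pathway lists. Intervals are exact Clopper-Pearson 95% intervals (scipy 1.17.1), computed on calls and on mean depths rounded to whole reads. The code was tested on simulated data. Without stated molecular identifiers, reads are not known to be independent molecules.

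Coordinates are printed as deposited, and the table as a whole is not in GRCm38. In 2 regions (Sipa1 and Nmral1) the deposited exon had the same start and end as an exon of that gene in GENCODE M21, so GRCm38 sequence was read there. Other introns were matched to GENCODE by length alone. Genes named are the 3 members, the listed genes with a region and the 3 regions with the most similar levels. Alternatives changed the level, the unit of counting, the depth, the number of sites, the measure of size and the elements.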

Additional observations from a re-analysis of the deposited data

How the results depend on the processing

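Adding 1 methylated and 1 unmethylated read to each library gave differences of -21.4, 12.6 and -18.9 points at Rap1gap, Sipa1 and Rps6ka1, with the same directions. Levels from whole calls return the deposited levels by construction. The width of the exact 95% intervals was 8.83 and 12.8 points (control and choline library) at Rap1gap, 3.49 and 4.19 at Sipa1 and 15.8 and 12.2 at Rps6ka1 with calls as the unit. With the mean depth as the number of reads it was 36.2 and 52.3 points at Rap1gap, 26.6 and 31.2 at Sipa1, and 36.2 and 28.3 at Rps6ka1. With 2 times the mean depth, which was chosen after seeing the data, it was 25.4 and 36.4, 18.5 and 21.6, and 25.2 and 19.7. Fewer trials widen an interval by construction. By rank from the largest difference, Rap1gap stood at 2.90% of the list, Sipa1 at 44.2% and Rps6ka1 at 8.70%. By the absolute log2 ratio they stood at 65.2%, 67.4% and 42.8%, and with a read added to each state Rap1gap was at 6.52% and Rps6ka1 at 14.5%. Rps6ka1 has under 10 sites and has no place among regions with at least 10. The share of regions lower in the choline library was 32.3% at a depth of at least 10 and 20.2% with at least 10 sites, for which the cause was not tested. Of the 6 pathway genes with a region, 5 had both depths at 10 or more. No paired analysis was possible because each group has 1 library, and for that reason no library could be left out.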

Other observations

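At Nmral1, the other region with an exon at its GRCm38 coordinates, 10 sites were listed where the sequence of 174 bases held 7 CpG dinucleotides, and the region again began and ended on a CpG. At Nmral1 and Sipa1, the regions whose sequence was read, a listed number of sites is thus not a number of dinucleotides. Nmral1 was chosen after its values were seen.

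Methylation level and direction were set side by side over the list. With the list split at mean levels over both libraries of 11.4%, 18.5% and 27.3% into 4 bins of 69 regions, the lowest bin had 11.6% of regions lower in the choline library (8 of 69), and the next bins had 30.4%, 36.2% and 27.5%. Rap1gap was in the highest bin, at a mean level of 42.6%. Sipa1 and Rps6ka1 were in the bin below it, at 24.5% and 26.2%. No test was made of these shares, since level and difference come from the same values.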
